A study of Homo sapiens with 7 samples.

Results

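The CTCF peaks at 5 regulators of the fetal globin genes, BCL11A, ZBTB7A, KLF1, MYB and LIN28B, were examined in K562 cells with and without the G4 ligand pyridostatin (PDS). A peak belonged to a gene when it overlapped the gene or lay within 50 kb of either end, and the gene models were those of GENCODE on GRCh37 (hg19). This rule used positions only and gave 20 of the 32917 peaks of PDS-treated cells and 19 of the 33094 peaks of control cells. The 5 genes belonged to a background of 19914 protein-coding genes.

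Occupancy of DNA by CTCF was measured by chromatin immunoprecipitation and sequencing (ChIP-seq) in K562, an established human leukaemia line that can be driven towards erythroid cells. The control groups, which received no PDS, comprised 2 CTCF samples and 1 sample precipitated with nonspecific IgG. The treated groups, exposed to 10 μM PDS for 24 h, comprised 2 CTCF samples and 2 IgG samples. All groups were of the same cell line, and the methods of the study call the replicates biological ones, although the labels do not state whether they were separate cultures. The authors called peaks once per condition on both replicates together, so each gene was described by 2 lists without a value per replicate, and no SD and no test between conditions could be given. The sequencing depth behind the peaks is unknown. A peak found in 1 list only was therefore called in 1 condition and not in the other, which does not show that CTCF was absent there. The identity of the cells could not be checked from peak lists, because these hold no expression values.

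Red blood cells switch from fetal to adult haemoglobin around birth, and the proteins encoded by these genes act in that switch. BCL11A and ZBTB7A (also known as LRF) are zinc finger repressors that bind the fetal γ-globin promoters and silence them in adult erythroid cells. KLF1 is an erythroid activator of the adult β-globin gene and of BCL11A, and MYB is a transcription factor of blood progenitors whose lowering raises fetal haemoglobin. LIN28B is an RNA-binding protein of fetal cells that blocks the maturation of let-7 miRNAs and lowers BCL11A protein. CTCF is a zinc finger protein that marks the borders of chromatin loops, and a G-quadruplex (G4) is a folded structure that stacked guanines can form in G-rich DNA.

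Sequence matches to the CTCF consensus and to G4 motifs are shown first. The CTCF consensus of 15 positions, derived from ChIP with exonuclease digestion, was searched on both strands without a mismatch. It was found in 1 of the 20 peaks of PDS-treated cells (5%, exact 95% binomial interval 0.127 to 24.9%) and in 3 of the 19 peaks of control cells (15.8%, 3.38 to 39.6%). Among all peaks the shares were 14.4% and 17.3%, respectively, and both lay inside the intervals of the regulators. These intervals cover counting error only. The shares depended on the search. With 1 mismatch allowed they were 25% and 42.1% (all peaks 46.2% and 54.3%), and in the central 200 bp 0% and 0% (all peaks 9.77% and 13.5%). The matches are given 5′ to 3′ on the strand that carries them, with the positions that the consensus restricts in capitals.
BCL11A, 7.32 kb before the start, chr2:60788098-60788112 (+): cCAccAGAgGGCAGT
LIN28B, in the gene and outside its exons, chr6:105525937-105525951 (-): cCActAGAgGGCAGC
LIN28B, past the gene end, chr6:105535647-105535661 (+): cCAccAGAgGGCACT
The match upstream of BCL11A lay in a peak of both lists, whereas both matches at LIN28B lay in peaks of control cells only.

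A G4 motif was defined as at least 4 runs of GGG or longer, separated by 1 to 7 bases of any kind, on either strand. Such a motif was found in 4 of the 20 peaks of PDS-treated cells (20%, exact interval 5.73 to 43.7%) and in 5 of the 19 peaks of control cells (26.3%, 9.15 to 51.2%). Among all peaks the shares were 17.2% (5658 of 32893) and 16.1% (5310 of 33070). With loops of up to 12 bases instead, the shares were 35% and 52.6% (all peaks 29.4% and 27.0%). The control share lay above the interval given, which is that of loops of 1 to 7 bases. Longer loops admit more motifs by construction, and no interval is given for these shares. The motifs are given with the G runs in capitals, read on the strand that carries them.
ZBTB7A, intron, chr19:4058419-4058440 (-), PDS peak only: GGGaGGGGGagaaaGGGGtGGG
ZBTB7A, intron, chr19:4058496-4058526 (-), both lists: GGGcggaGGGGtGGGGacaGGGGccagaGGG
KLF1 neighbour MAST1, chr19:12949252-12949279 (-), both lists: GGGcaGGGGaGGGcaGGGaaGGGGaGGG
KLF1, outside the exons, chr19:12996050-12996075 (-), both lists: GGGGaagaaGGGttgcagaGGGcGGG
KLF1, exon 2, chr19:12996345-12996371 (+), both lists: GGGGGacgtggcGGGaccGGGcgcGGG
KLF1, exon 2, chr19:12996609-12996633 (+), both lists: GGGagcccGGGctcgcaGGGcaGGG
MYB, intron, chr6:135504194-135504216 (+), control peak only: GGGagtcGGGcaGGGGtgctGGG
LIN28B, 15.7 kb before the canonical start, chr6:105389318-105389345 (+), both lists: GGGaGGGcGGGGcGGGGcaGGGcGGGGG
ZBTB7A, KLF1 and LIN28B thus had a motif inside a peak of either list, MYB in a peak of control cells only, and BCL11A in no peak. All motifs are matches of letters in the reference sequence, and whether they folded in these cells was not measured by the peak lists. A motif lay outside the peak but within 1 kb of it for 8 further peaks of PDS-treated cells and 5 of control cells, as for 29.6% and 27.8% of all peaks.

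**Figure D1:**
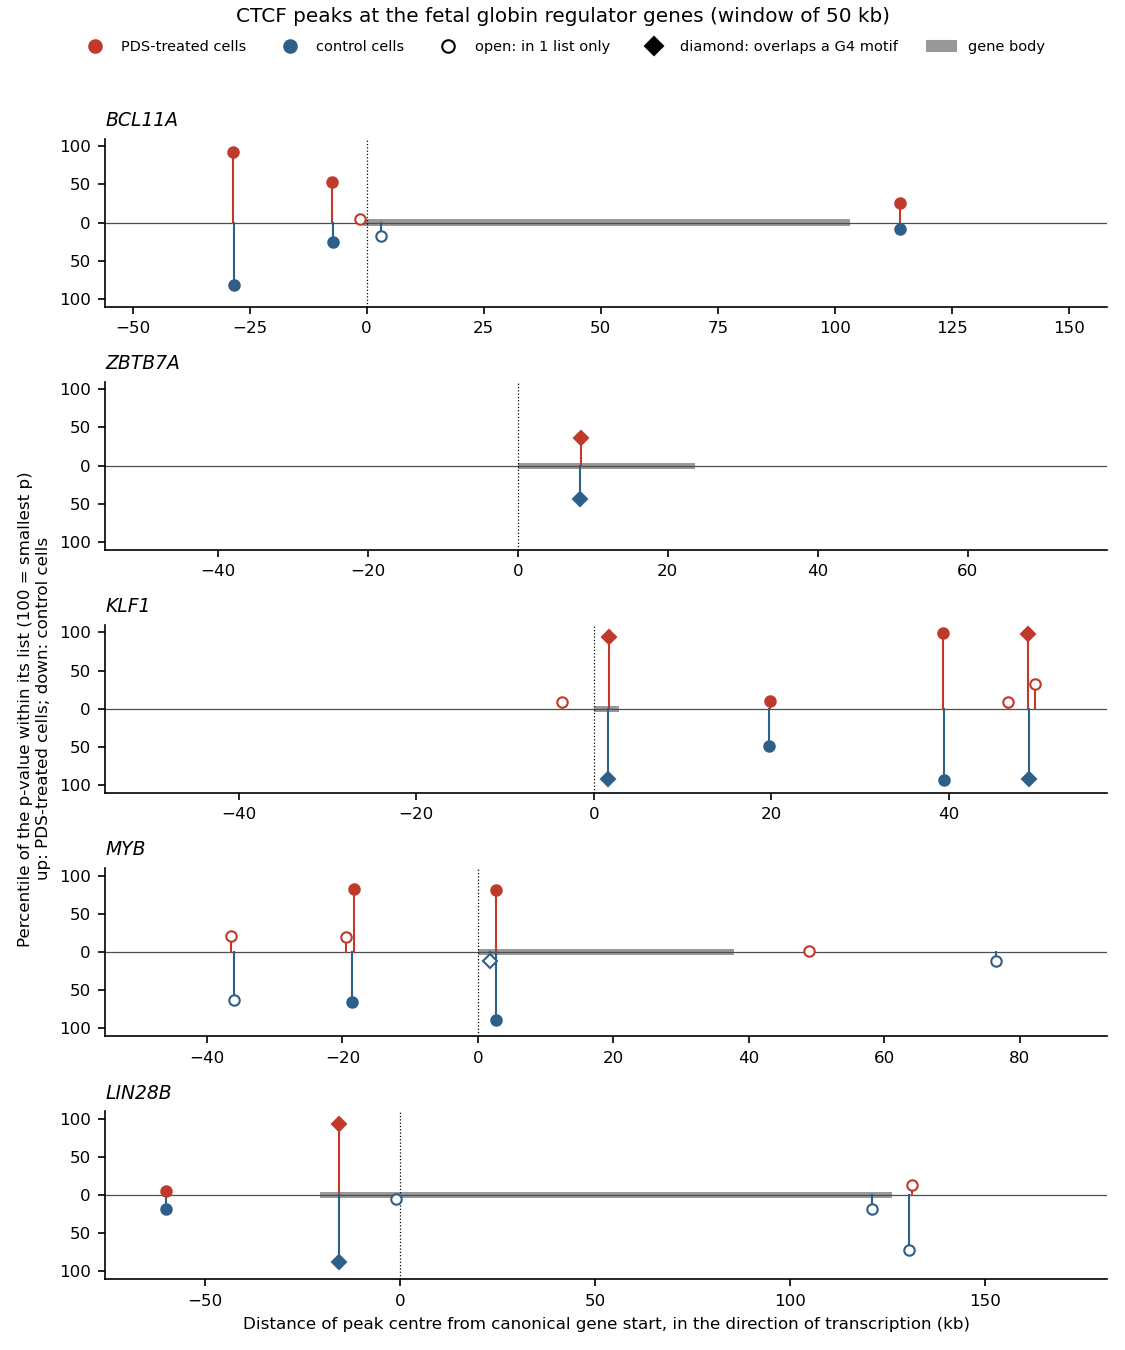
CTCF peaks of PDS-treated (red) and control cells (blue) around the start of each gene, by distance of the peak centre from the canonical start in kb (horizontal) and percentile of the p-value within the list (vertical, up for PDS and down for control), with open symbols for peaks of 1 list only, diamonds for peaks with a G4 motif and a grey bar for the gene. KLF1 had 7 peaks after PDS and 4 without, LIN28B 3 and 5, and the other genes as many in 1 list as in the other.

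The repressor BCL11A (ENSG00000119866.22, chr2:60677655-60781602, minus strand) had 4 peaks in each list, 3 of them shared. A peak was called shared when it overlapped a peak of the other list by at least 1 bp. The peaks were ranked within their own list by the fold enrichment over IgG that the authors computed, and the percentile given below is the share of the list that ranked lower. Levels of fold were not compared between the lists, because each was set by the authors against IgG of its own condition. Only 1 IgG sample of control cells is among the samples, and whether the control peaks were called over it alone is not known. This bears on every control call, fold and p-value and on the percentiles of both measures. The shared peak with the consensus (chr2:60787901-60788650) had a fold of 18.6 in the PDS list, at percentile 59.8, and a fold of 21.8 in the control list (chr2:60787741-60788280), at percentile 33.7. A further shared peak, 28.5 kb before the start, stood at percentile 92.6 of the control list with a fold of 57.7 (chr2:60808741-60809520) and at percentile 39.9 of the PDS list with a fold of 15.1 (chr2:60808901-60809700). By fold the order of these peaks differed between the lists, with the distal peak first in control cells and the consensus peak first in PDS-treated cells. By the p-value of the peak caller the order was the same in both lists, with the distal peak at percentile 92.6 and the consensus peak at 52.8 in PDS-treated cells, and at 81.8 and 25.6 in control cells. The remaining shared peak lay 114 kb past the start, outside the 3′ end of BCL11A, in an exon of the long noncoding RNA MIR4432HG, and had percentiles of 8.39 and 41.4 by fold, and of 25.5 and 9.02 by p-value, in the PDS and control lists.

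Close to the start of BCL11A each list held a peak that the other lacked. In PDS-treated cells a peak of 100 bp (chr2:60782201-60782300) lay 1412 bp before the canonical start, with a fold of 4.27 at percentile 0.0927, so that only 30 peaks of the list ranked lower. In control cells a peak of 180 bp (chr2:60777541-60777720) lay 3069 bp inside the gene, in an intron, with a fold of 29.1 at percentile 57.9. By p-value they stood at percentiles 4.96 and 18.3, so both were in the lower part of their lists. The pair was 4480 bp apart. Neither peak held a G4 motif, although 7 motifs lay within 1 kb of the start of BCL11A, and within 1 kb of the control peak there were 4. The sequence under the PDS-only peak is shown on the strand of the gene because it was the nearest peak to the start.
BCL11A, PDS-only peak, chr2:60782201-60782300 (-): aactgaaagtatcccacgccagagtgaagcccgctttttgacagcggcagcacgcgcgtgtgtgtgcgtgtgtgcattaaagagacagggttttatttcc

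ZBTB7A (ENSG00000178951.9, chr19:4043301-4066897, minus strand), the other repressor, had 1 peak in each list, and both lay in the same intron. The peak of PDS-treated cells (chr19:4058401-4058550) was 150 bp wide with a fold of 21.7, at percentile 72.8. The peak of control cells (chr19:4058461-4058640) was 180 bp wide with a fold of 12.8, at percentile 12.4. They overlapped by 90 bp. Among the 12 peaks that were shared one to one at the regulators, this was the largest positive difference in rank by fold, PDS minus control, 60.3 percentile points, whereas by p-value the percentiles were 36.1 and 44.3 and the difference was -8.17 points. The nearest edge lay 8347 bp from the gene start after PDS and 8257 bp in control cells, and no peak was called at the start itself, where 14 G4 motifs lay within 1 kb. The sequence of the PDS peak is shown on the gene strand with the G runs of its 2 motifs in capitals, of which the upstream motif lay in both peaks and the downstream motif beyond the edge of the control peak.
ZBTB7A, PDS peak, chr19:4058401-4058550 (-): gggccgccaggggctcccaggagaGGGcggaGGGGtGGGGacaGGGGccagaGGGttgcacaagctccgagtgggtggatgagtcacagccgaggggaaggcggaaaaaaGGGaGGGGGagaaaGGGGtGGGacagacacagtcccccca

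KLF1 (ENSG00000105610.6, chr19:12995236-12998015, minus strand), the erythroid activator, had 7 peaks in PDS-treated and 4 in control cells. All 4 control peaks were shared. The peak in KLF1 itself covered coding sequence of exon 2 and held 3 of the G4 motifs shown above, more than any other peak at these genes. In control cells it spanned 900 bp (chr19:12996001-12996900) with a fold of 44.3, at percentile 83.8, and in PDS-treated cells 700 bp (chr19:12996001-12996700) with a fold of 11.8, at percentile 21.4. By p-value the same peak stood at percentile 91.5 in control and 93.5 in PDS-treated cells. Its fold rank was thus lower and its p-value rank nearly level. The central 300 bp of the PDS peak are shown on the gene strand, where the motif of the plus strand appears as C runs, given in capitals.
KLF1, exon 2, chr19:12996201-12996500 (-): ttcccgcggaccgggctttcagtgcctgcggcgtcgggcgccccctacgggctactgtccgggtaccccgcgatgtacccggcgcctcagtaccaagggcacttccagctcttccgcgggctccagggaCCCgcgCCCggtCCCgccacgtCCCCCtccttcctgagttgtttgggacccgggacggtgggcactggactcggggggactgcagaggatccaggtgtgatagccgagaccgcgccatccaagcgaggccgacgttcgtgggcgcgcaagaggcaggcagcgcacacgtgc

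The other shared peaks of KLF1 lay in MAST1, a neighbouring kinase gene at lower coordinates, past the 3′ end of KLF1. The peak over MAST1 exons 6 and 7 had a fold of 112 in control cells (chr19:12958321-12958860) at percentile 99.5. In PDS-treated cells (chr19:12958351-12959050) its fold of 22.9 stood at percentile 76.5, and its p-value at rank 196, percentile 99.4. This was the highest rank by fold among the control peaks and the highest by p-value among the PDS peaks at the regulators. The peak over the start of MAST1, 48.9 kb from the KLF1 start, held a G4 motif and had similar percentiles by fold, 77.6 after PDS and 79.0 in control cells, and 98.3 and 92.2 by p-value. A peak 19.9 kb from the KLF1 start was 100 bp wide at percentile 1.97 in PDS-treated cells and 420 bp wide at percentile 9.33 in control cells by fold. By p-value it stood at percentiles 10.7 and 49.3, and the difference of -38.6 points was the largest by p-value among the 12 pairs.

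Each of the 3 PDS-only peaks at KLF1 was narrow, with widths of 150, 100 and 100 bp. The first (chr19:12948301-12948450) lay 150 bp from a control peak, the second (chr19:12951301-12951400) 1800 bp and the third (chr19:13001551-13001650) 4650 bp. The first and second, near the start and over exon 2 of MAST1, had folds of 18.6 and 18.4 at percentiles 59.9 and 59.1. The third lay 3.59 kb before the KLF1 start and 324 bp from the start of GCDH, which encodes glutaryl-CoA dehydrogenase, and had a fold of 12.9 at percentile 26.5. By p-value the 3 peaks stood at percentiles 31.9, 8.54 and 9.48, all in the lower part of the list.

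MYB (ENSG00000118513.20, chr6:135502446-135540311, plus strand) had 5 peaks in each list, and only 2 of them were shared. The shared intronic peak 2.63 kb past the start had a fold of 26.7 at percentile 85.9 in PDS-treated cells (chr6:135504751-135505400) and of 37.5 at percentile 75.3 in control cells (chr6:135504721-135505440). The shared peak about 18 kb before the start, in the interval towards HBS1L, measured 600 bp at percentile 67.9 in PDS-treated cells (chr6:135483801-135484400) and 1200 bp at percentile 39.9 in control cells (chr6:135483181-135484380). Both shared peaks ranked higher by fold in the PDS list, by 10.6 and 28.0 points. By p-value the difference was -8.78 points for the intronic peak and 16.4 points for the upstream peak.

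The peaks of MYB found in 1 list only fell into neighbouring and isolated ones. A PDS-only peak of 100 bp (chr6:135465901-135466000) at percentile 5.06 lay 140 bp from a control-only peak of 540 bp (chr6:135466141-135466680) at percentile 88.2 with a fold of 49.9, and by p-value the pair stood at 21.3 and 62.3. A PDS-only peak of 150 bp (chr6:135482951-135483100) at percentile 59.6 by fold and 19.8 by p-value lay 80 bp from the shared upstream peak of control cells. These gaps are no more than a few of the steps, 50 bp in the PDS list and 60 bp in the control list, in which positions are given, so the call as unshared rests on the overlap rule. The other peaks, a PDS-only one 48.9 kb past the start (chr6:135551251-135551350) and a control-only one 76.5 kb past it (chr6:135578821-135579000), were each other's nearest neighbours across the lists at 27470 bp, and stood at percentiles 6.40 and 48.0 by fold and 1.71 and 11.9 by p-value. The interval of 78.3 kb between HBS1L and MYB, which carries enhancers of MYB in erythroid cells and variants linked to fetal haemoglobin, held 3 peaks of PDS-treated and 2 of control cells.

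The last control-only peak at MYB (chr6:135504181-135504360) was the peak closest to the start, at 1735 bp, and the only peak found in 1 list only that held a G4 motif. It was 180 bp wide with a GC content of 76.7%, and had a fold of 28.8 at percentile 56.9 and a p-value at percentile 11.4. The nearest peak of PDS-treated cells began 390 bp further along the gene, and the shared intronic peak of control cells began closer still, so that the control list held separate peaks where the PDS list held 1. Its sequence is shown in full on the gene strand with the G4 motif in capitals.
MYB, control-only peak, chr6:135504181-135504360 (+): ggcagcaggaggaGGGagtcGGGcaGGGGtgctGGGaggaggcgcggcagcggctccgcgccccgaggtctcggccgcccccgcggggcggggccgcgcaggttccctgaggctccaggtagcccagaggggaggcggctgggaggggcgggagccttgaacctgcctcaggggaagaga

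LIN28B (ENSG00000187772.8, chr6:105384491-105531207, plus strand) had 3 peaks in PDS-treated and 5 in control cells, and 2 were shared. The canonical transcript starts at 105404982, inside the annotated gene. The shared peak 15.5 kb before this start, at exon 1 of the antisense transcript LIN28B-AS1, held a G4 motif and had the steadiest rank by fold of all shared peaks at the regulators. Its fold was 30.5 at percentile 91.4 in PDS-treated cells (chr6:105389151-105389800) and 54.6 at percentile 91.2 in control cells (chr6:105389161-105389820). By p-value it stood at percentiles 93.5 and 87.1. The other shared peak, 59.9 kb before the start, was 100 bp wide with a GC content of 27% in PDS-treated cells (chr6:105345051-105345150), and stood at percentile 71.8 by fold in control cells and 0.266 in PDS-treated cells, the most negative difference among the 12 pairs. By p-value it was at percentile 17.8 in control and 5.06 in PDS-treated cells, in the lower part of both lists.

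All 3 control-only peaks of LIN28B lay from its start to just past its end. The peak at the start (chr6:105403981-105404160) lay 822 bp before it, was 180 bp wide, and had a fold of 27.6 at percentile 53.4 by fold and 5.72 by p-value. Its nearest peak in PDS-treated cells was 14180 bp away. It was also the only peak within 1 kb of the canonical start of any of the 5 genes. The peak that reached coding sequence of exon 4 (chr6:105525781-105526320) held the consensus on the minus strand, outside the exon, with a fold of 25.6 at percentile 46.9 by fold and 18.7 by p-value, and lay 9780 bp from the nearest PDS peak. The peak 4054 bp past the gene end (chr6:105535261-105535860) held the consensus on the plus strand, with a fold of 20.1 at percentile 29.5 by fold and 72.0 by p-value. A PDS-only peak of 100 bp (chr6:105536101-105536200) lay 240 bp from this last peak, did not cover its consensus, and stood at percentile 17.9 by fold and 12.8 by p-value. The sequence of the peak at the start is shown because no PDS peak covered it.
LIN28B, control-only peak, chr6:105403981-105404160 (+): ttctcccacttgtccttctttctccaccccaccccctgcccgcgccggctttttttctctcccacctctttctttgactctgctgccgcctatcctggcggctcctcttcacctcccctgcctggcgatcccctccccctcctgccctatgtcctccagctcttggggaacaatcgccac

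Shared peaks made up 12 of the 20 peaks of PDS-treated cells (60%, exact interval 36.1 to 80.9%) and 12 of the 19 peaks of control cells (63.2%, 38.4 to 83.7%). Among all peaks the shares were 78.6% and 78.0%. Both lay within the intervals of the regulators. This depended on the definition of sharing, since with peak centres at most 100 bp apart the share was 35% in the PDS list (7 of 20, exact interval 15.4 to 59.2%) beside 59.9% of all PDS peaks, just outside the interval, and 36.8% in the control list (7 of 19, 16.3 to 61.6%) beside 59.6%, inside it. By gene, the shared peaks in the PDS and control lists were 3 of 4 and 3 of 4 at BCL11A, 1 of 1 in both at ZBTB7A, 4 of 7 and 4 of 4 at KLF1, 2 of 5 and 2 of 5 at MYB, and 2 of 3 and 2 of 5 at LIN28B. Of the 8 PDS-only peaks, 4 lay within 240 bp of a control peak, and of the 7 control-only peaks 2 lay that close to a PDS peak. These 2 are the neighbours of 2 of the 4 PDS-only peaks, so their gaps are counted from both lists. Over the whole lists this held for 25.6% of peaks called after PDS only and for 12.4% of those called without PDS only. The distance of 240 bp is itself a gap between peaks at LIN28B, so nothing about the regulators is read from this comparison.

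Peak width differed with sharing, as over the whole lists. Widths are read within a list, because they come in steps of 50 bp in the PDS list and 60 bp in the control list. The shared peaks had a median width of 650 bp after PDS and 600 bp in control cells, and the peaks of 1 list only 100 bp and 180 bp. Over the whole lists these medians were 400 and 420 bp for shared peaks and 100 and 180 bp for the others. Of the 20 PDS peaks 8 had the smallest width in the list, 100 bp, which 18.4% of all PDS peaks had, and 1 of the 19 control peaks had the smallest width of 120 bp, as did 13.8% of all control peaks. All 8 PDS-only peaks were 100 to 150 bp wide and stood below percentile 50 by p-value, at 1.71 to 31.9, as did 4 of the 12 shared PDS peaks. The 7 control-only peaks were 180 to 600 bp wide and stood at percentiles 5.72 to 72.0, 5 of them below 50, as were 5 of the 12 shared control peaks. Over the whole lists 98.9% of the 7031 PDS-only peaks and 88.5% of the 7274 control-only peaks stood below percentile 50 by p-value, beside 36.7% and 39.2% of shared peaks. The part of width in the sharing of these peaks was not tested.

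**Figure D2:**
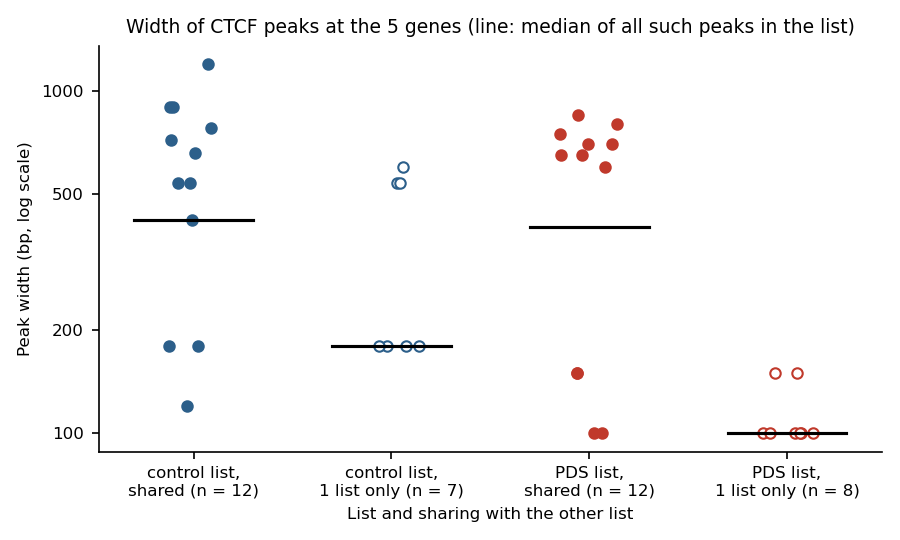
Width in bp (log axis) of each CTCF peak at the 5 regulators in control and PDS-treated cells, split into shared peaks and peaks of 1 list only, 1 point per peak, with a line at the median of all such peaks in the list. PDS-only peaks lie between 100 and 150 bp and control-only peaks between 180 and 600 bp.

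Ranks by fold of the 12 peaks shared one to one differed widely between the lists. The percentile in PDS-treated cells was lower than in control cells for 7 pairs and higher for 5 (lower for 48.6% of all pairs), with a median difference of -4.36 points, quartiles of -37.9 and 14.5 and a range from -71.5 to 60.3. Over all 24633 pairs the median was 0.69 points with quartiles of -18.5 and 20.6. Thus 8 of the 12 pairs lay beyond these quartiles of all pairs, as 50% of all pairs do by construction. Ranked by p-value, 4 pairs were lower and 8 higher (43.7% of all pairs lower), with a median difference of 6.08 points beside 2.30 for all pairs. The PDS peak was the narrower one in 9 of the 12 pairs and in 11543 of all 24633. Widths come in steps of 50 bp in the PDS list and 60 bp in the control list. They are thus not on the same scale, and no difference between the conditions is read from them. The direction of the rank difference thus depended on the measure, and no direction is read from it. In the plot of ranks the highest lines by p-value were those of KLF1, whose 3 wide peaks stayed above percentile 90 in both lists.

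**Figure D3:**
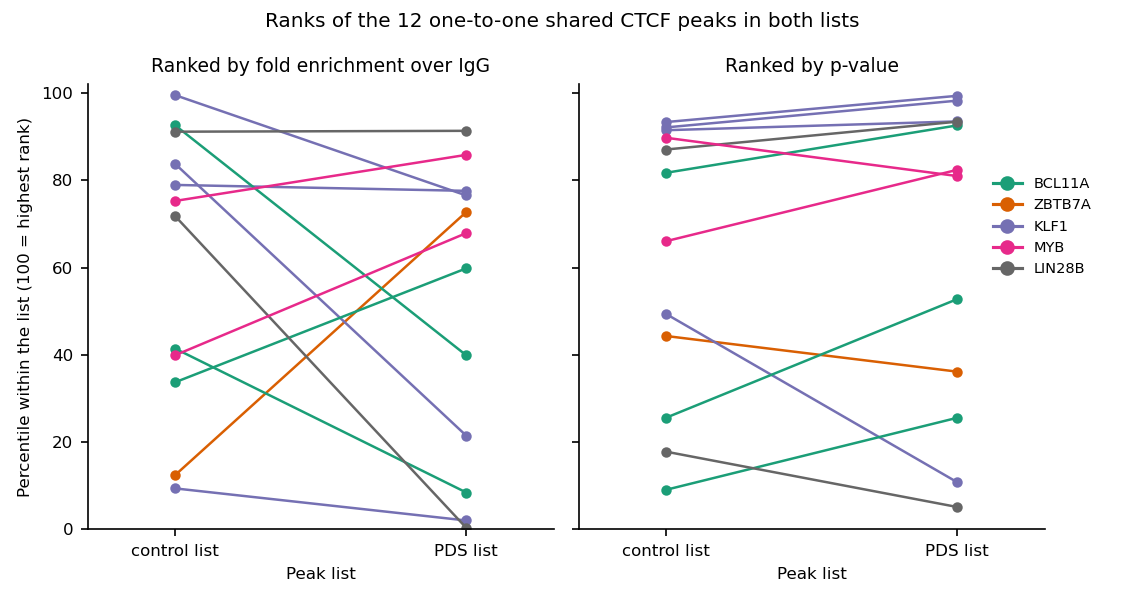
Percentile within the control list (left) and the PDS list (right) of the 12 CTCF peaks shared one to one, ranked by fold enrichment over IgG in the first panel and by p-value in the second, 1 line per peak in the colour of its gene. Lines cross more by fold, where the ends differ by 60.3 points for ZBTB7A and by -71.5 points for a LIN28B peak.

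Standing within the lists depended on the measure. The median percentile of the peaks at the regulators by fold was 49.5 after PDS and 56.9 in control cells, with 10 of 20 and 11 of 19 peaks above percentile 50. By p-value the medians were 28.7 and 49.3, with 8 and 9 peaks above 50. The median of the PDS peaks was thus lower by p-value than by fold, although single PDS peaks differed in both directions. The median GC content of the peaks was 54.2% and 60.4%, beside 53% and 51% over the whole lists.

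The number of peaks per gene was set beside that of all protein-coding genes. Every regulator had a peak within 50 kb in both lists, as did 84.7% of coding genes after PDS and 87.8% in control cells. The median over coding genes was 3 peaks in each list, with quartiles of 1 and 6 after PDS and of 1 and 5 in control cells. KLF1 with 7 peaks exceeded 79.7% of coding genes after PDS, and with 4 peaks it exceeded 52.6% in control cells. Because KLF1 is short, 2.78 kb, its density of 6.81 peaks per 100 kb of gene and flanks exceeded that of 90.6% of coding genes in PDS-treated cells, and its 3.89 peaks per 100 kb that of 75.5% in control cells. MYB with 5 peaks exceeded 64.4% and 65.5%, and BCL11A with 4 peaks 53.9% and 52.6%. LIN28B exceeded 41.7% of coding genes after PDS and 65.5% in control cells. ZBTB7A, with 1 peak, exceeded 15.3% and 12.2% and was the sparsest of the 5. KLF1 stood first in the PDS list and level with BCL11A in the control list, and LIN28B stood below BCL11A in the PDS list and level with MYB in the control list, through differences of 3 and 2 peaks.

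**Figure D4:**
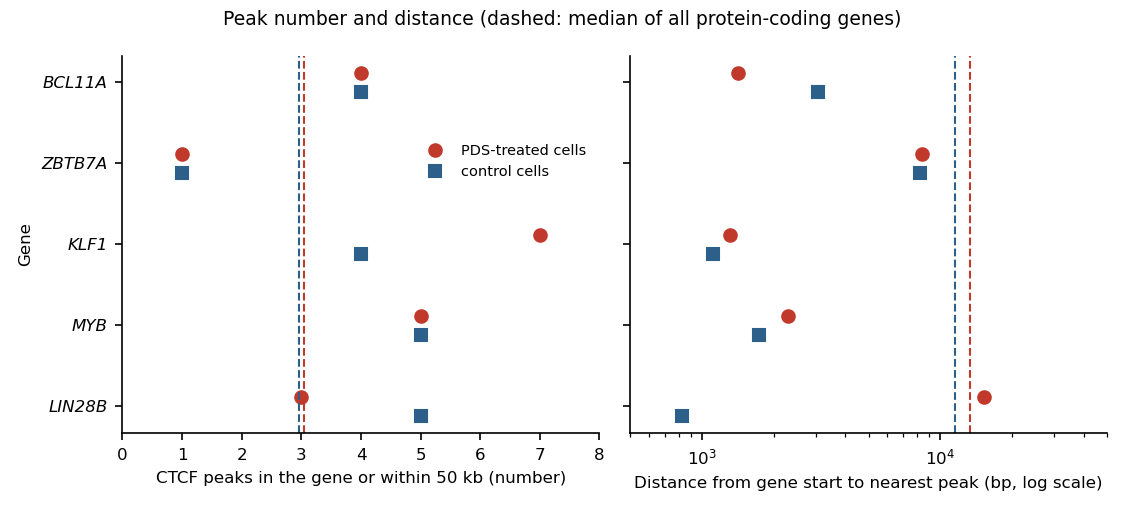
Number of CTCF peaks in the gene or within 50 kb (left) and distance in bp from the canonical start to the nearest peak on a log axis (right) for the 5 genes in PDS-treated (circles) and control cells (squares), with dashed lines at the medians of all coding genes. ZBTB7A has 1 peak in each list, and the start of LIN28B lies 15182 bp from a peak after PDS and 822 bp in control cells.

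Gene starts were mostly near a peak but not under one. None of the 5 canonical starts had a peak within 1 kb in the PDS list, where an exact interval on 0 of 5 reaches 52.2%. In the control list 1 start, that of LIN28B, had one. Among coding genes these shares were 21.5% (4287 of 19914) and 22.8% (4549 of 19914). The counts depend on the start used. The annotated gene BCL11A begins before its canonical start, and its nearest PDS peak lay 599 bp from that annotated end. The distance to the nearest peak was 1315 bp for KLF1, 1412 bp for BCL11A, 2305 bp for MYB, 8347 bp for ZBTB7A and 15182 bp for LIN28B in PDS-treated cells. In control cells it was 822 bp for LIN28B, 1115 bp for KLF1, 1735 bp for MYB, 3069 bp for BCL11A and 8257 bp for ZBTB7A. The medians over coding genes were 13.3 kb and 11.5 kb. LIN28B was thus the farthest of the 5 after PDS and the nearest in control cells, and the change rests on the 180 bp peak described above. G4 motifs within 1 kb of the start were present at all 5 genes, 14 at ZBTB7A, 7 at BCL11A, 4 at KLF1, 4 at MYB and 3 at LIN28B, as at 68.6% of coding genes. ZBTB7A, with the most motifs at its start, had no peak within 8 kb of it in either list.

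The number of peaks depended on the window of 50 kb, since within the gene bodies the 5 genes held 4 peaks of PDS-treated and 8 of control cells, and within 100 kb 39 and 37. The nearest peak outside it lay 50656 bp from KLF1 without PDS and 50986 bp with it, and 53241 bp and 53251 bp from ZBTB7A. At BCL11A, MYB and LIN28B the next peak was at least 76691 bp away. The farthest peak inside lay 46786 bp from KLF1, in the PDS list.

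Other genes of the same pathway were taken from a list of 28 partners. It comprised subunits of the NuRD repressor complex recruited by BCL11A and ZBTB7A, other chromatin enzymes and corepressors, transcription factors, RNA-binding and translation factors and HBS1L, the neighbour of MYB. EHMT2, a histone H3 lysine 9 methyltransferase, could not be assessed, because it lies in a stretch of 4.996 Mb (chr6:28464251-33459900) without a peak in either list. The other 27 had a peak within 50 kb in both lists, with a median of 6 peaks and a range of 1 to 19. A peak within 1 kb of the start was found at 8 of the 27 in PDS-treated cells (29.6%) and at 10 in control cells (37.04%), and the 8 were among the 10. The shares over all coding genes, given above, were 21.5% and 22.8%, and the partners were not tested against them. The starts with a control peak only were those of NR2C2, a nuclear receptor that binds the fetal globin promoters, and IGF2BP3, an RNA-binding protein of fetal cells. Their nearest peaks lay at 411 and 550 bp in control cells and at 21340 and 39860 bp in PDS-treated cells. Both genes were named after these values were seen. The share of all coding genes with a start peak in the control list only is not given, so nothing particular to the partners is read from them.

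NFIX, a transcription factor of the nuclear factor I family, had the most peaks of the 27, 19 in each list. GATAD2A, a NuRD subunit, had 16 in PDS-treated and 12 in control cells and a peak within 50 bp of its start in both. DNMT1, the maintenance DNA methyltransferase, had 12 in both lists, and ATF4, a stress-response factor that activates BCL11A in human erythroid cells, 12 and 11. By role, the median numbers in the PDS and control lists were 6 and 4.5 for the 6 NuRD genes and 6 and 6 for the 5 other chromatin enzymes and corepressors assessed. They were 7 and 7 for the 11 transcription factors and 5.5 and 5.5 for the 4 RNA-binding and translation factors. HBS1L had 4 and 7 peaks. No role had a peak at most of its gene starts in either list except the other chromatin enzymes and corepressors, with 3 of 5 in both.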

How the data were processed

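CTCF ChIP-seq covered 7 samples of K562 cells (2 CTCF and 1 IgG without PDS, 2 CTCF and 2 IgG with 10 μM PDS for 24 h). The submitters' processing notes name Bowtie2 2.2.3, SAMtools, deepTools 2.0 and hg19. The authors removed reads of low mapping quality and duplicates, and called peaks with PePr on both replicates of a condition over IgG. The deposited score and adjusted p-value of each peak were not used. The fold enrichment over IgG, a linear ratio computed by the authors, and the p-value the authors obtained ranked the peaks within a list, with no further normalization. Depth is not given by the lists, so no interval beyond the exact (Clopper-Pearson) 95% binomial interval of a share was computed, and this covers counting error only.

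Gene models were those of GENCODE 44 lifted to GRCh37, with the start of the Ensembl canonical transcript. The background left out chromosome Y, where neither list holds a peak, and 184 genes of a stretch of chromosome 6 without peaks. In each list 24 peaks on sequences other than the chromosomes were left out of motif searches. Sequences are those of GRCh37 and not of K562. Promoter tables of another build were not used.

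The genes, the list of partners and the rules were chosen with earlier results of these data known. All 5 genes were named, with the peaks nearest the start, those highest by fold, those in 1 list only and those with a motif or consensus described in full, and of the partners the 3 with most PDS peaks (4 with a tie) and those with none in either list. NR2C2 and IGF2BP3 were named after their values were seen. No genes of like pattern were sought, since 2 lists give no profile. Motif and overlap searches were tested on simulated data, where 200 of 200 planted G4 motifs, 200 of 200 consensus matches and 700 of 700 shared intervals were found. Alternatives varied the window, the overlap, the merging and stringency of peaks, the motifs and the ranking. Python 3.11.15 was used with samtools 1.23.1, matplotlib 3.10.9, pyfaidx 0.9.0.4, scipy 1.17.1, pandas 2.3.3 and numpy 2.4.6.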

Additional observations from a re-analysis of the deposited data

How the results depend on the processing

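Of 32 alternatives, 17 left a count within 1.5 times its main value, a share within its 95% interval or a rank difference within 1 SD, 14 moved one and 1 turned a direction. By construction, the number of peaks at the 5 genes was 4 after PDS and 8 in control cells within the gene bodies, 39 and 37 within 100 kb, and 8 and 9 where the 50% of each list with the lowest p-values were kept. The shared share was 35% and 36.8% where peak centres had to lie within 100 bp (all peaks 59.9% and 59.6%). Under that stricter selection by p-value it was 87.5% of PDS and 77.8% of control peaks (all peaks 83.5% and 82.9%). With 1 mismatch allowed the CTCF consensus was in 25% of PDS and 42.1% of control peaks (all peaks 46.2% and 54.3%), and in the central 200 bp in 0% and 0% (all peaks 9.77% and 13.5%). With G4 loops of up to 12 nt, 35% of PDS and 52.6% of control peaks held a motif (all peaks 29.4% and 27.0%). The control share then lay above the interval of its main value, 9.15 to 51.2%. The G4 shares of PDS and control peaks were 10% and 15.8% in the central 200 bp (all peaks 10.1% and 9.72%) and 37.5% and 33.3% under the stricter selection (all peaks 27.5% and 23.6%), within their intervals. In the central 1000 bp these shares were 20% and 36.8% (all peaks 29.9% and 28.6%), also within the intervals. There the PDS share was below that of all peaks and the control share above it. The median rank difference of the 12 shared peaks turned from -4.36 points by fold to 6.08 by p-value, and its cause was not tested. No paired analysis was possible because the replicates of a condition were merged into 1 list by the peak caller, and for the same reason no replicate could be left out. The unknown depth and the unequal number of IgG samples limit every statement that a peak was not called.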
